A study of Mus musculus with 8 samples.

Results

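Cadps2 and Cadps encode the pair of CAPS proteins (calcium-dependent activator proteins for secretion) of the mouse. They are 2 of the 21368 genes that could be named on the array, and every non-control probe whose RefSeq accession maps to either gene was taken: 3 probes for Cadps2 and 1 for Cadps, of 55681 probes in all. The genes were chosen by the measured log2 difference of Cadps2 between the genotypes, one of the lowest on the array, with Cadps as its only paralog. The difference between the groups is therefore described for both genes without a test. All 4 probes passed the filter on dim signal, which required that a probe stand well above background on 4 or more of the 8 arrays.

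The samples were labelled as Lgr5-high intestinal stem cells from mice with a green fluorescent Lgr5 reporter, and every sample was hybridised to an array of its own. The Irf2_AhcKO group (4 arrays) carried Irf2fl/fl, the AhCre transgene and the knock-in allele Lgr5-EGFP-Ires-CreERT2. The control group (4 arrays) carried Irf2fl/fl and Lgr5-EGFP-Ires-CreERT2. Both groups thus carried the floxed Irf2 alleles and the Lgr5 allele, which itself holds a tamoxifen-dependent Cre, and both were given β-naphthoflavone on 5 consecutive days, 1 month before sampling. Ah-Cre is driven by a xenobiotic-inducible promoter that β-naphthoflavone switches on, in whichever epithelial cells respond to it. For control replicates 3 and 4 the scanner data are named with a mention of Ah-Cre, so whether those controls carried it is not settled. No source used here gives ages. The design text names 4 independent mice but also 2 biological replicates, so the spread that p-values measure here, that between arrays of a group, may be technical in part.

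CAPS proteins act late in regulated secretion. They bind the membrane lipid PIP2 through a pleckstrin homology domain and carry a MUN domain like that of the Munc13 proteins, and they prime dense-core vesicles, the granules of peptide hormones and monoamines, by helping SNARE proteins assemble before calcium triggers fusion. In the gut such granules are best known from enteroendocrine cells. CAPS1, the product of Cadps, has been studied mostly in neurons and neuroendocrine cells, and CAPS2, the product of Cadps2, is known in the mouse brain for promoting the release of neurotrophins.

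The arrays lay on 2 slides, each with 2 Irf2_AhcKO and 2 control arrays, and the share of spots well above background ranged between 61.4% and 69.8%. Replicates 1 and 2 of both groups were on slide 1 and replicates 3 and 4 on slide 2. The single Irf2 probe gave no lower signal under the Irf2_AhcKO label. Its log2 level was 1.12, 1.096, 0.70 and 0.73 on the Irf2_AhcKO arrays, against 0.99, 0.55, 0.37 and 0.64 on the control arrays (difference 0.27, SE 0.12, limma adjusted p = 0.465). Here and below a log2 level is the log2 processed intensity minus the array's 75th percentile, and arrays are given in the order of their replicate numbers. Whether this probe lies inside the deleted stretch of Irf2 is stated in no source used here, so every direction is between arrays labelled Irf2_AhcKO and arrays labelled control.

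Cadps2 transcript signal was lower on all 4 Irf2_AhcKO arrays than on all 4 control arrays with 2 of its 3 probes, and lower within each slide with all 3. The probe of highest mean signal was A_51_P233153, annotated to NM_153163. Its log2 level was -1.89, -1.91, -1.82 and -2.46 on the Irf2_AhcKO arrays, against 1.02, 0.64, 0.38 and 0.47 on the control arrays. The groups stood far apart, with 2.20 log2 units between the highest Irf2_AhcKO array and the lowest control array. The means were -2.02 ± 0.30 and 0.63 ± 0.28 (SD, n = 4 each) in Irf2_AhcKO and control, a log2 difference of -2.65 (SE 0.16), or 6.27-fold lower. The difference was -2.73 on slide 1 and -2.57 on slide 2.

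**Figure D1:**
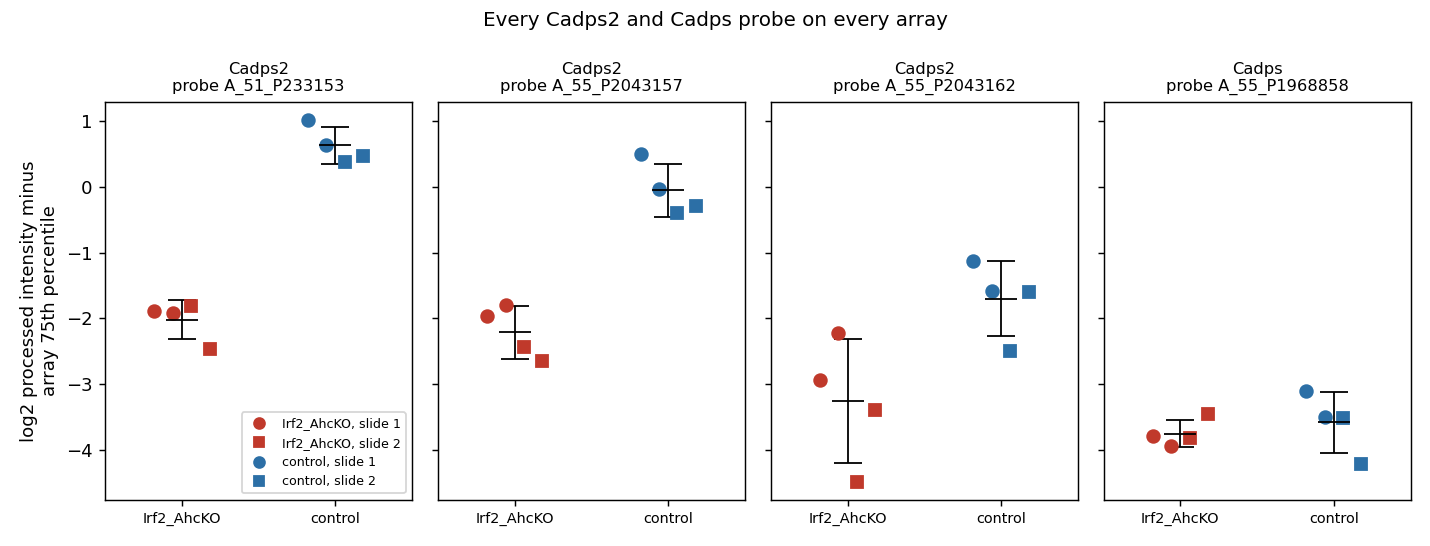
Log2 level (log2 processed intensity minus the array's 75th percentile, y axis) of each Cadps2 and Cadps probe on each array, with Irf2_AhcKO in red and control in blue, circles for slide 1 and squares for slide 2, and bars for the mean ± SD of 4 arrays. The groups stand apart by 2.20 and 1.41 log2 units for the first 2 Cadps2 probes, while they overlap for the third Cadps2 probe and for Cadps. Levels of different probes cannot be compared with each other.

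The second probe annotated to the same transcript was A_55_P2043157. Its log2 level was -1.97, -1.80, -2.44 and -2.65 on the Irf2_AhcKO arrays, against 0.50, -0.04, -0.39 and -0.30 on the control arrays. These groups did not overlap either, and the nearest arrays of the groups were 1.41 log2 units apart. The log2 difference was -2.16 (SE 0.13), or 4.47-fold lower, with -2.12 on slide 1 and -2.20 on slide 2.

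The third probe, A_55_P2043162, was annotated to the transcript variant NM_001252107 and was dimmer. Without probe sequences, this probe cannot be said to read that variant alone. Its log2 level was -2.94, -2.23, -4.48 and -3.40 on the Irf2_AhcKO arrays, against -1.13, -1.59, -2.49 and -1.61 on the control arrays. The groups overlapped, because Irf2_AhcKO replicate 2 lay above control replicate 3, although within each slide both Irf2_AhcKO arrays were lower than both control arrays. On Irf2_AhcKO replicate 3 the spot was not well above background. The log2 difference was -1.56 (SE 0.34), or 2.94-fold lower, with -1.22 on slide 1 and -1.89 on slide 2. The size thus differed between the probes of 1 gene, and the smallest value came from the dimmest probe.

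In raw brightness, the spot of A_51_P233153 had a median pixel of 97, 98, 107 and 79.5 on the Irf2_AhcKO arrays, against 474, 404, 327 and 357.5 on the control arrays. The local background beside it was 31, 26, 36 and 31 in Irf2_AhcKO and 28.5, 28, 44 and 40.5 in control. This spot was well above background on every Irf2_AhcKO array, so its levels there are measured values and not bounds. Fewer cells that express a transcript and less transcript per cell cannot be told apart in such bulk samples.

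Cadps, the paralog, was close to the detection limit and showed no such separation. Its probe was A_55_P1968858, annotated to NM_012061. The log2 level was -3.79, -3.94, -3.82 and -3.46 on the Irf2_AhcKO arrays, against -3.10, -3.50, -3.52 and -4.22 on the control arrays. The groups overlapped, and control replicate 4, the lowest of the 8 arrays, was not well above background. The means were -3.75 ± 0.21 and -3.58 ± 0.46 (SD, n = 4 each) in Irf2_AhcKO and control. The log2 difference of -0.17 (SE 0.23) was smaller than the spread between replicates, with -0.57 on slide 1 and 0.23 on slide 2. Spot medians of 52 to 59 in Irf2_AhcKO and 54 to 64 in control, over local backgrounds of 26 to 34 and 27 to 42, leave little room to see a decrease in Cadps at this signal.

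Over all 31652 features tested (1 probe a gene, unnamed probes singly), the Cadps2 difference ranked 8 from the lowest. Under limma with Benjamini-Hochberg adjustment, 8 features (0.0253%) were lower and 9 (0.0284%) higher in Irf2_AhcKO at an adjusted p below 0.05. Groups that did not overlap, with Irf2_AhcKO lower, were found in 1.9% of the features. Under a replicate block 0 of 31652 features passed (limma, 3781 at an unadjusted p below 0.05).

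The slide was not used to choose the genes, and it could be tested. In the fit over every kept probe, A_55_P2043157 was lower on slide 2 than on slide 1 (log2 slide difference -0.62, SE 0.13, limma adjusted p = 0.0124). A slide difference in either direction passed for 33.8% of the 36289 probes, so it is common on these arrays. The other Cadps2 probes had slide differences of -0.32 (SE 0.16, adjusted p = 0.165) and -1.02 (SE 0.34, adjusted p = 0.0546), and Cadps had one of -0.17 (SE 0.23, adjusted p = 0.619). None of these passed the threshold.

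Whether the difference between the genotypes depended on the slide was tested as an interaction, since the controls named with Ah-Cre lie on slide 2. For A_51_P233153 the difference was 0.16 higher on slide 2 (SE 0.34), for A_55_P2043157 it was -0.08 (SE 0.29) and for A_55_P2043162 it was -0.67 (SE 0.68). For Cadps it was 0.80 (SE 0.39), and the limma adjusted p was 0.9999 for each of the 4 probes. No feature passed this test (0 of 31652, 0.0%), and 1443 (4.56%) had an unadjusted p below 0.05. With 2 arrays per group and slide the intervals are wide, so a difference between slides of the size of these errors would not have been detected.

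Dense-core vesicle release needs many other proteins, and none of the measured ones passed the threshold. Of 89 other genes of this pathway, 73 were measured and 0 of 73 passed in either direction (0.0537% of all features did). At an unadjusted limma p below 0.05 there were 7 (9.59%), against 10.9% of all features, with 5 higher and 2 lower in Irf2_AhcKO. Their median log2 difference was 0.02, against 0.00 over all features, and their values lay between -0.57 and 0.83. The share of pathway genes with a small p was thus near that of all features, where 5.92% were higher and 4.99% lower.

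**Figure D2:**
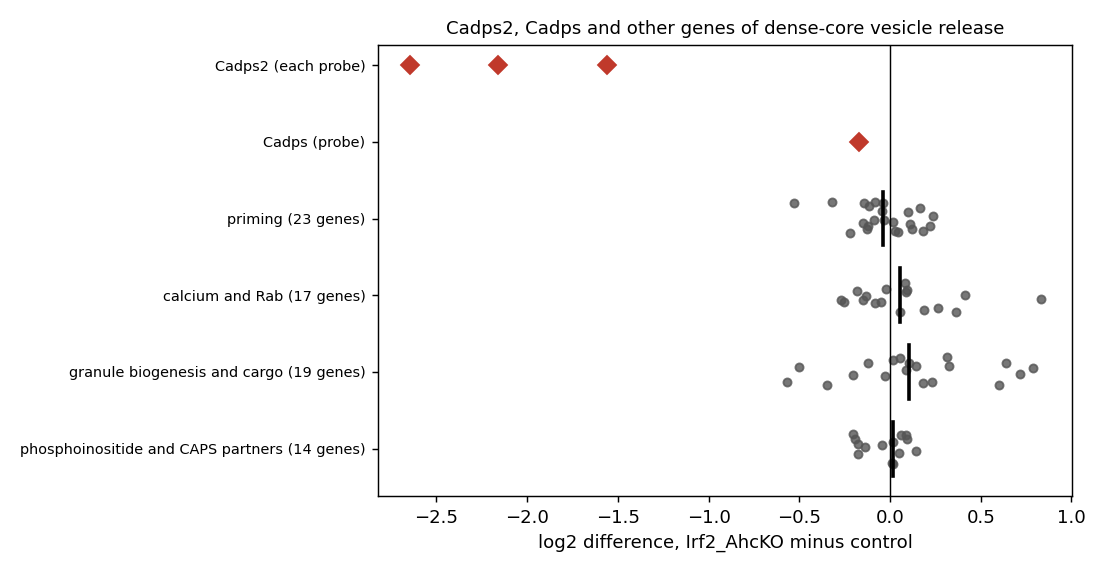
Log2 difference between Irf2_AhcKO and control (x axis) for each Cadps2 and Cadps probe (red diamonds) and for the measured genes of 4 lists of dense-core vesicle release (grey points, with the list median as a black bar). The Cadps2 probes lie at -2.65, -2.16 and -1.56, and all 73 other genes lie between -0.57 and 0.83.

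Among priming and fusion factors, 23 of 27 genes were measured, with a median of -0.04. The Munc13 proteins share the MUN domain with CAPS, and of their 4 genes Unc13b stood at a log2 difference of -0.15 (SE 0.11, adjusted p = 0.621 by limma) and Unc13d at -0.04 (SE 0.24, adjusted p = 0.955), while Unc13a and Unc13c were well above background on 1 and 2 arrays and were not tested. Stxbp2, the Munc18 protein of epithelial and blood cells, stood at 0.22 (SE 0.09, adjusted p = 0.456). Snap29, a SNARE of internal membranes, stood at -0.22 and the complexin Cplx4 at 0.24.

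Of 26 calcium sensors and Rab proteins with their effectors, 17 were measured, with a median of 0.06. Rims1, a Rab3 effector of release sites, stood at 0.41 (SE 0.15, limma adjusted p = 0.399) and was well above background on 2 of 4 control arrays. The synaptotagmin Syt10 stood at -0.27 (SE 0.10, adjusted p = 0.405). Sytl1, a Rab27 effector, stood at -0.18 and Rph3al, which binds Rab3 and Rab27, at 0.27.

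Granule biogenesis and cargo genes had the largest share of small unadjusted p-values among the 4 pathway lists, 4 of 19 measured genes of 22, against 10.9% of all features. A positive difference was found for 13 of the 19 (68.4%) and for 50.5% of all features. Among features with a symbol, as all genes of the list have, 6754 of 15111 were positive. Chga, the granule protein chromogranin A, had a log2 level of 0.34, 0.29, 0.71 and 0.21 on the Irf2_AhcKO arrays, against a mean of -0.33 ± 0.41 (SD, n = 4) on the control arrays. Its groups did not overlap, and its log2 difference of 0.72 (SE 0.18, limma adjusted p = 0.284) had the sign opposite to that of Cadps2. Pcsk1, the convertase that cuts prohormones, stood at 0.60 (SE 0.13, adjusted p = 0.229) and Ica1, which takes part in granule maturation, at 0.31 (SE 0.08, adjusted p = 0.296). The vesicular monoamine transporter Slc18a2 stood at -0.57 (SE 0.23, adjusted p = 0.451). Groups not overlapping with Irf2_AhcKO higher were found for 2 of the 19 genes, Chga and Ica1, and for 1.71% of all features.

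Enzymes of phosphoinositide supply and known CAPS partners varied least. All 14 genes were measured, with differences between -0.21 and 0.14 and none at an unadjusted p below 0.05. Pip5k1a, a kinase that makes PIP2, stood at -0.21 (SE 0.09, limma adjusted p = 0.465). Arf4, of the class of ARF GTPases that CAPS proteins bind, stood at -0.18 (SE 0.08, adjusted p = 0.459). Pitpna, a lipid transfer protein, stood at -0.19 and the kinase Pi4k2b at 0.14.

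Genes beside Cadps2 on chromosome 6 did not pass the threshold. Of the 12 protein-coding genes that lie inside it or are the 5 nearest named ones on either side, 5 were measured, with differences between -0.52 and -0.03 and no unadjusted p below 0.05. On 1 side, Fam3c, a secreted cytokine-like protein, stood at -0.16 (SE 0.08) and the Wnt ligand Wnt16 at -0.14 (SE 0.16). On the other side, the bitter taste receptor gene Tas2r118 stood at -0.03 (SE 0.22), the sulfate transporter Slc13a1 at -0.52 (SE 0.31, limma adjusted p = 0.544) and Ndufa5, a subunit of respiratory complex I, at -0.03 (SE 0.09). Rnf133 and Rnf148, which lie within Cadps2, were not well above background on any array, nor were Ptprz1, Aass and Asb15.

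Around Cadps on chromosome 14, 6 of 10 such genes were measured, with differences between -0.17 and 0.21 and likewise no unadjusted p below 0.05. The receptor phosphatase Ptprg stood at 0.21 (SE 0.11, limma adjusted p = 0.505), Oit1 at -0.17, the mRNA export factor Thoc7 at -0.13, the proteasome subunit Psmd6 at -0.10, Fhit at -0.08 and Atxn7 at -0.05. Order along the chromosome was taken from RefSeq assembly GRCm38.p6, and no coordinates are given because the grid file of the arrays names mm9.

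**Figure D3:**
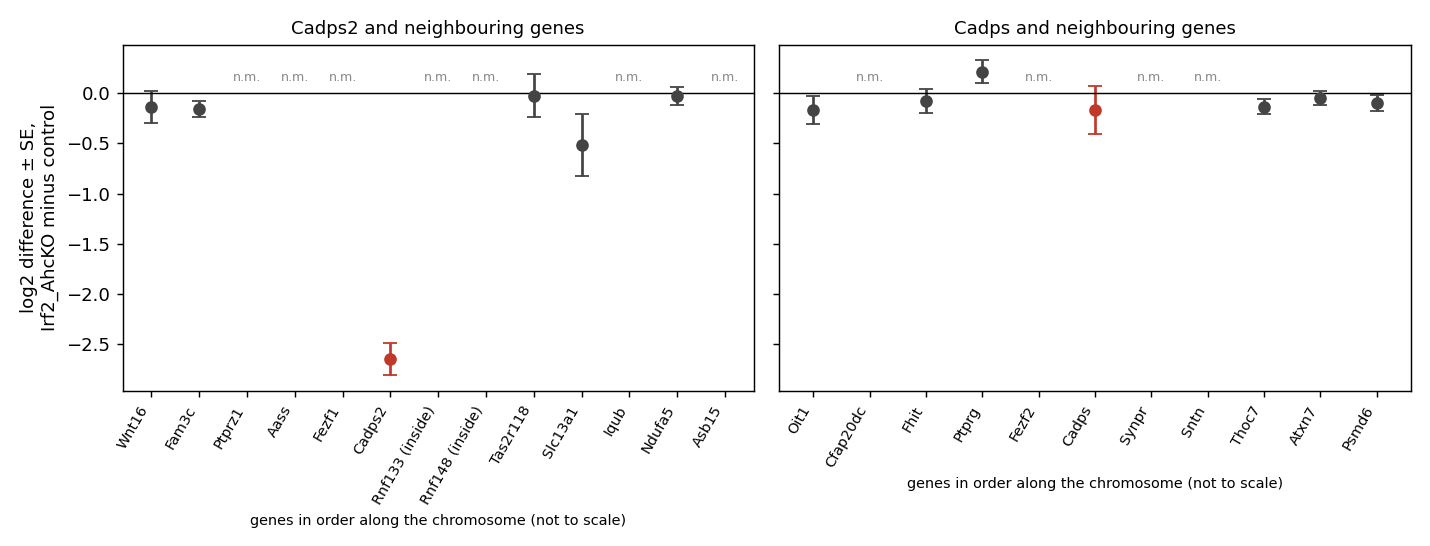
Log2 difference ± SE between Irf2_AhcKO and control (y axis) of Cadps2, Cadps (red, probes A_51_P233153 and A_55_P1968858) and their protein-coding neighbours (grey) in chromosome order. "n.m." marks genes that did not pass the filter on dim signal, and apart from Cadps2 at -2.65 all measured genes lie between -0.52 and 0.21.

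IRF factors bind DNA elements with repeats of GAAA, so the start region of both genes was searched on both strands for GAAA, any 2 bases and GAAA again. The windows of 300 bases (250 before and 50 after a RefSeq start, GRCm38.p6) held no match for Cadps2 and none for Cadps, and 3.44% of 32851 such windows held one. Both genes have RefSeq records that begin upstream of their window, so these are not the only starts. The Cadps2 window had 44 CpG pairs in the 250 bases before the start, against 14 for Cadps and a median of 6 over all windows. The absence of these letters from 1 window says nothing about binding elsewhere.

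The cell type markers were measured beside the genes. Lgr5-high stem cells should express stem and pan-epithelial markers. Of these, 9 of 10 stem cell markers and 6 of 6 pan-epithelial ones were measured. Their list means were 2.51 to 2.89 and 3.31 to 3.61 in Irf2_AhcKO, against 2.69 to 2.95 and 3.26 to 3.73 in control. Of the 9 stem cell markers, 7 had a negative difference. At an unadjusted limma p below 0.05, 2 of the 9 were lower, Gkn3 at -0.64 and Slc14a1 at -0.55 (4.99% of all features were). None of the 9 passed the adjusted threshold. Of the 6 pan-epithelial markers, 1 was lower at an unadjusted limma p below 0.05, Krt19 at -0.43, and none passed the adjusted threshold. All 10 enterocyte markers were measured, and their summed levels did not overlap between the groups. Their mean log2 level was -0.53 to -0.13 in Irf2_AhcKO and 0.24 to 1.12 in control, without overlap, and their summed level on the log2 scale was 6.11 to 6.44 in Irf2_AhcKO and 6.56 to 10.53 in control. The top of both control ranges came from Sis, the brush border enzyme sucrase-isomaltase, on control replicate 4. Sis had a log2 level of -2.43, -2.53, -1.57 and -2.62 on the Irf2_AhcKO arrays, against -1.74, -1.66, -0.79 and 10.42 on the control arrays. Without Sis, in a comparison added after seeing the data, the mean level was -0.30 to 0.06 in Irf2_AhcKO and 0.08 to 0.87 in control, and the summed level was 6.10 to 6.43 in Irf2_AhcKO and 6.55 to 6.84 in control. The means then came close to touching, with control replicate 4 the lowest control array. A summed level adds unlogged intensities, so the brightest probe weighs most in it. Without Sis that was the probe of Fabp2, with a mean log2 level of 6.07 in Irf2_AhcKO and 6.57 in control. The separation of the sums without Sis therefore rests largely on this 1 probe. Of the 10 genes, 7 were lower at an unadjusted limma p below 0.05 (4.99% of all features were), 2 had a positive difference, and none passed the adjusted threshold. The Cadps2 difference was -2.65 without control replicate 4, and the part of enterocyte transcripts in it was not tested.

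Enteroendocrine cells carry dense-core granules, and the summed level of their markers overlapped between the groups. The 16 measured enteroendocrine markers of 17 had a summed level of 3.55 to 4.38 in Irf2_AhcKO and 3.25 to 4.17 in control. Pax4 did not pass the filter. At an unadjusted limma p below 0.05, 2 of the 16 were higher, Chga at 0.72 and Tac1 at 0.54 (5.92% of all features were). Another 2 were lower, Gip at -0.75 and Neurog3 at -0.36 (4.99% of all features were). None of the 16 passed the adjusted threshold, and a sum does not show such opposite differences. The 9 measured tuft cell markers of 12 had 2.59 to 3.90 in Irf2_AhcKO and 2.42 to 2.83 in control, without Gnat3, Ptgs1 and Il25, and 3 of the 9 were higher at an unadjusted limma p below 0.05 (5.92% of all features were). The 5 measured markers of enteric neurons and glia of 10 had 6.25 to 6.56 in Irf2_AhcKO and 6.16 to 6.49 in control. The neuronal genes Ret and Uchl1 were not well above background on any array. Of the 5, 1 was lower at an unadjusted limma p below 0.05, Sox10 at -0.50 (4.99% of all features were). The 12 measured leukocyte markers of 14 had 3.55 to 3.73 in Irf2_AhcKO and 3.18 to 3.54 in control, barely apart, while their mean levels overlapped (-1.15 to -1.04 in Irf2_AhcKO, -1.53 to -0.91 in control). Of these 12, 3 were higher at an unadjusted limma p below 0.05 (5.92% of all features were). They were Cd79b at 1.33, Fcer1g at 0.53 and Nkg7 at 0.40. Cd79b was well above background on only 2 of 4 control arrays. None of the 12 passed the adjusted threshold. The part of tuft and leukocyte transcripts was not tested. Paneth markers (5 of 7 measured) had 5.67 to 6.79 in Irf2_AhcKO and 5.94 to 6.47 in control. Of the 5, 1 was higher at an unadjusted limma p below 0.05, Mmp7 at 0.52 (5.92% of all features were). Goblet markers (7 of 7) had 7.23 to 7.74 in Irf2_AhcKO and 7.34 to 7.63 in control. All 7 had a negative difference, between -0.30 and -0.05, as had 8357 of the 15111 features with a symbol. Of the 7, 1 was lower at an unadjusted limma p below 0.05, Muc2 at -0.30 (4.99% of all features were). No marker of the neuron and glia, Paneth or goblet lists passed the adjusted threshold. The brightest probe weighed most in the sums of these lists too. Chgb of the enteroendocrine list averaged 2.91 in Irf2_AhcKO and 2.58 in control. Elavl4 of the neuron and glia list averaged 6.19 in Irf2_AhcKO and 6.06 in control, and Fcgbp of the goblet list 6.85 and 7.01.

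**Figure D4:**
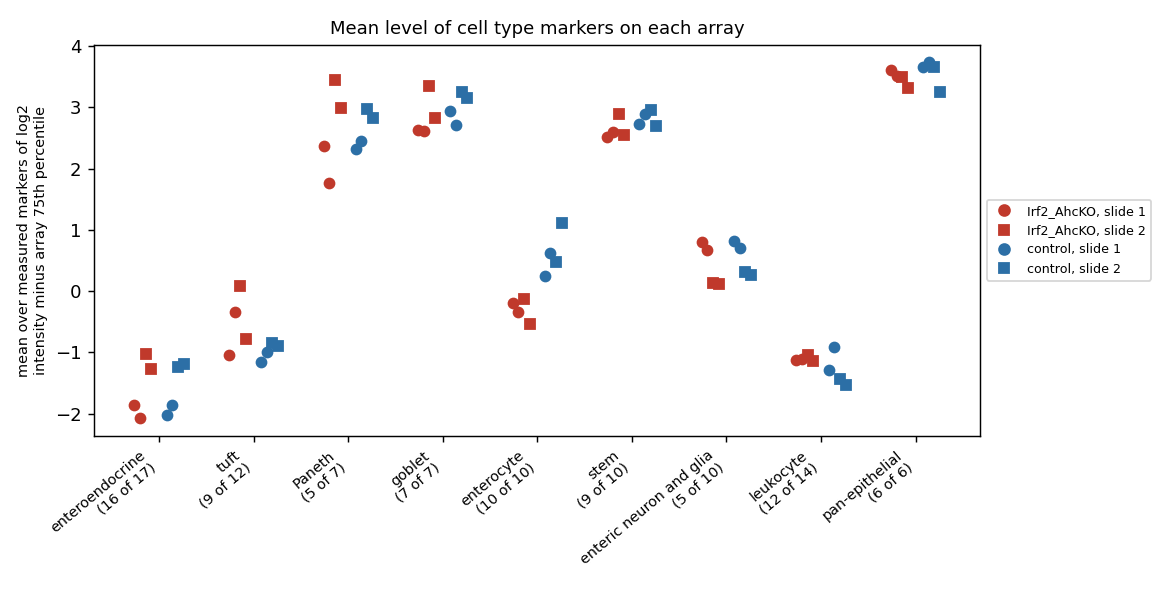
Mean log2 level of the measured markers of each cell type (y axis) on each array, with Irf2_AhcKO in red and control in blue, circles for slide 1 and squares for slide 2. The labels give how many of the listed markers were measured, and the enterocyte means lie between -0.53 and -0.13 in Irf2_AhcKO and between 0.24 and 1.12 in control, where the highest, control replicate 4, includes Sis at 10.42.

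The features most like Cadps2 were found by Pearson's r over the 8 arrays with each slide's mean removed, which includes the difference between the groups and is given as a description. Of 31651 other features, 372 had r above 0.9 and 309 below -0.9. The highest named ones were Naca, part of the complex that meets nascent proteins at the ribosome (r = 0.993), the predicted gene Gm5779 (0.992), Fgf14, a modulator of sodium channels (0.991), the methionine sulfoxide reductase Msrb2 (0.990), the retinaldehyde dehydrogenase Aldh1a1 (0.989) and the fructose kinase Khk (0.987). A high r does not mean a like size: Naca had a log2 difference of -0.08 and Fgf14 one of -0.40, against -2.98 for Msrb2 and -1.79 for Aldh1a1. The lowest were the purine enzymes Pnp (r = -0.991) and Pnp2 (-0.984), the transcription factor subunit Taf7 (-0.989) and Sectm1a (-0.984). With slide means kept, r was 0.38 for Naca and 0.50 for Gm5779. With slide means removed, Cadps had r = 0.27. All features share the same 8 arrays, their labelling and their groups, so these values carry no independent support.

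The size of the Cadps2 difference was smaller from another signal with another background correction. With normexp on the median spot signal in place of the processed intensity, and an offset of 50 that draws dim signals together, the log2 differences were -1.80, -1.41 and -0.61 for A_51_P233153, A_55_P2043157 and A_55_P2043162, and -0.02 for Cadps. Leaving out each array in turn gave -2.79 to -2.54, -2.28 to -2.06 and -1.77 to -1.27 for the Cadps2 probes in that order. For Cadps it gave -0.39 to -0.01, with the value nearest 0 without control replicate 1 and the farthest without control replicate 4.

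**Figure D5:**
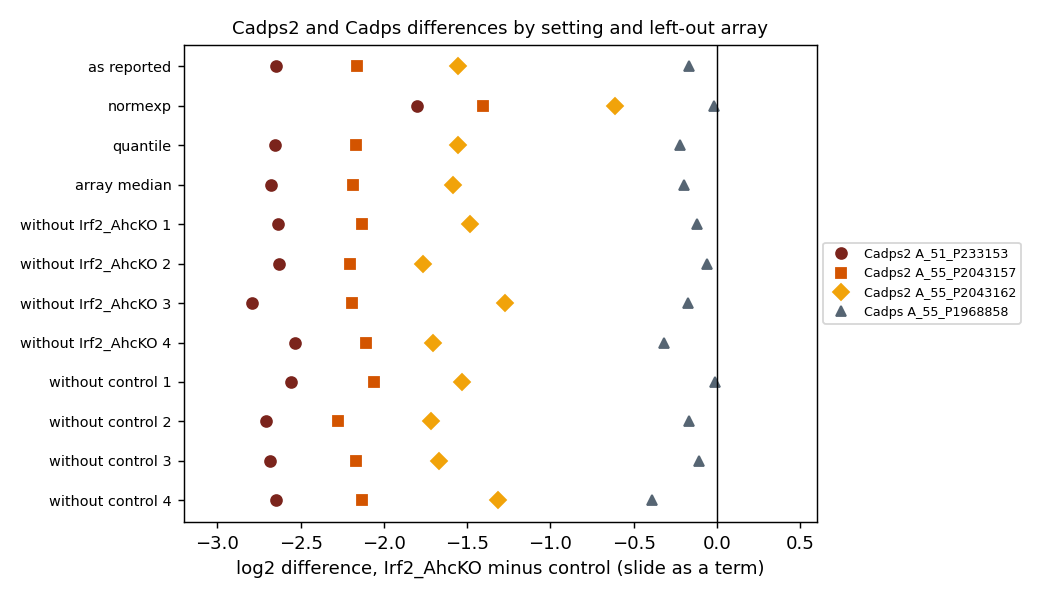
Log2 difference between Irf2_AhcKO and control (x axis) for each Cadps2 and Cadps probe as reported, under 3 other ways of scaling or background correction, and without each array in turn. The Cadps2 probes stay below 0 in all of them, between -2.79 and -0.61, and Cadps lies between -0.39 and -0.01.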

How the data were processed

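The authors' scanner files came from Agilent Feature Extraction 11.5.1.1, per the submitters' processing notes, and hold a processed (background-corrected) intensity per spot, per the file headers. The series table deposited by the authors is this intensity times 1 constant per array (6.41 to 6.90, not explained), on a linear scale without centring, with column medians of 207 to 246. Per the labels' protocols, RNA was amplified and labelled with Cy3, which can distort single transcripts.

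Log2 of the processed intensity minus the array's 75th percentile was averaged over spots of a probe without outlier spots. Probes were named by RefSeq accession (28331 of 55681). Features (the named gene's brightest kept probe, and each unnamed probe) were fitted in limma (version 3.58.1, R 4.3.3), with the slide as a term. Tests were two-sided, with Benjamini-Hochberg adjustment and a threshold of 0.05. The fit was tested on simulated data with independent noise and no slide effect, which does not cover the slide differences of these arrays. The files hold no mean spot signal, so normexp used the median signal. The number of arrays limits the precision.

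Deviations from group means correlated between arrays of the same number (r across features 0.44 to 0.52). With slide means removed as well, r was -0.21 to -0.03. Removing both means draws r below 0 by construction, so these values cannot decide whether arrays of the same number were paired. The fit has the slide as its term, and the replicate block is an alternative. Genes and lists were chosen with earlier results of these data known. Named genes were both CAPS genes, Irf2, the Unc13 genes, 4 members per pathway list by unadjusted p, measured neighbours, and the 6 highest and 4 lowest r with Cadps2. Some of the genes this rule takes are not reported here.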

Additional observations from a re-analysis of the deposited data

Results flagged for a closer look

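Only the 42 named genes were screened for single arrays that stood apart, and Sis was not among them. In 3 of 88 groups of 4 arrays, 1 array stood apart from the others by more than Dixon's critical gap. Chance gives about 1 in 20 such groups. The Cadps2 probe A_51_P233153 had a log2 level of -2.46 on Irf2_AhcKO replicate 4, against -1.91 to -1.82 on the other Irf2_AhcKO arrays, and its log2 difference was -2.54 without that array. Unc13d had -2.12 on Irf2_AhcKO replicate 2, against -3.31 to -3.14 on the other Irf2_AhcKO arrays. Ptprg had 2.29 on Irf2_AhcKO replicate 2, against 2.61 to 2.66 on the other Irf2_AhcKO arrays.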

How the results depend on the processing

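The Cadps2 difference was negative under all alternatives run, which adds no support because the gene was chosen for this difference. Its value was -1.80 with normexp on the median spot signal and -2.12 as the mean of its 3 probes, against -2.65. Without single arrays it was -2.79 to -2.54. Cadps lay at -0.57 on slide 1 and 0.23 on slide 2, and -0.39 to -0.01 without single arrays. With probes well above background on all 8 arrays, Cadps was not measured. The count of passing features was not stable. Against 17, it was 134 with normexp, 31 with probes above background on all 8 arrays, 10 without the slide term, and 0 with no filter, with the replicate block, on slide 1 alone or on slide 2 alone (limma, 3818, 3781, 2978 and 1679 at an unadjusted p below 0.05). Without single arrays it was 0 to 13, and it moved by over 1.5 times in 7 of 8 cases, all but control replicate 4. Collapsing unnamed probes by identifier, chosen after seeing the data, gave 25. Of the 73 measured pathway genes, 7 had an unadjusted limma p below 0.05. The count was 3 without the slide term, 1 on slide 2 alone, 4 without control replicate 2 and 11 without control replicate 4. Over all 31652 features the count moved too, from 3456 to 1556, 1679, 2947 and 4701 in the same order. Of the 10 genes most alike, 5 were shared when slide means were kept. The replicate block and the fit without the slide term leave the difference of group means as it is by construction. For the Cadps2 probe, the other filters, the authors' series table and the collapsing of unnamed probes likewise left it at -2.65 by construction. Dim signal limits Cadps and the third Cadps2 probe.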
